A study of Mus musculus with 3 samples.

Results

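The 58 genes described here encode the enzymes and transporters of glycolysis, the pentose phosphate pathway, pyruvate entry into mitochondria and the citrate cycle. They were taken by gene symbol from the 41388 genes of the deposited count tables, and all 58 were found. The cells were taken from mouse embryos at 14.5 days post coitum, out of dorsal root ganglia, which hold the sensory neurons of the trunk and limbs. The embryos were of strain C57BL/6 and carried a Ret-EGFP reporter, which marks cells that express the receptor tyrosine kinase Ret. The genotype label writes the reporter as a transgene, Tg(Ret-EGFP)SJ, whereas the series' design text calls it a heterozygous knock-in at Ret. Fluorescent cells were sorted, and RNA from many ganglia was pooled into each of 3 libraries, named A, B and D. Library A came from 100 ganglia of 5 embryos, library B from 100 ganglia of 6 embryos and library D from 80 ganglia of 4 embryos, with both sexes in every pool. Values that follow in threes are in the order A, B, D. All libraries belong to 1 group and there is no control population, so the values describe levels in Ret-reporter cells and the spread between pools.

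Glycolysis splits glucose into pyruvate in the cytosol, and pyruvate is either reduced to lactate or carried into mitochondria. There the pyruvate dehydrogenase complex makes acetyl-CoA, which the citrate cycle oxidises. The pentose phosphate pathway branches off after the first step of glycolysis and makes NADPH and ribose phosphate. Many steps can be catalysed by isoenzymes from different genes, which are used to different degrees in neurons, glia, muscle and liver.

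Total counts were 20181558, 20355302 and 29061086. Levels are given as TPM, a scale that corrects counts for gene length and sums to the same total in every library. All 11 sensory neuron markers (among them Tubb3, Stmn2 and Nefl) reached 100 TPM, and their summed level lay between 41397 and 46403 TPM. The summed level of 10 Schwann and satellite glia markers was 564, 888 and 950 TPM. S100b (237, 382 and 410 TPM) and Fabp7 (200, 313 and 418 TPM) held most of it, Ednrb lay between 70.7 and 102 TPM, and Dhh and Foxd3 were below 1 TPM in every library. That of 9 erythroid markers was 186, 104 and 359 TPM, and that of 8 mesenchyme and pericyte markers 37.9, 93.9 and 29.5 TPM. The 6 endothelial, 7 macrophage and 8 skeletal muscle markers each summed to at most 25.4 TPM per library. Acta1 held most of the muscle sum (17.7, 17.3 and 24.4 TPM), and the muscle marker Myog had no counts. In pooled bulk RNA, fewer cells of a type and less RNA per cell cannot be told apart.

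The 58 genes together held 1.76%, 1.67% and 1.70% of all counts. A mean of at least 1 TPM was reached by 55 of 58, beside 33.6% of all listed genes. At least 100 TPM was reached by 27 genes, or 46.6%, beside 3.96% of all listed genes. The highest was Mdh2, mitochondrial malate dehydrogenase, at 2093 ± 100.3 TPM (mean ± SD, n = 3 here and below). Aldoa, the muscle and general form of aldolase, followed at 1873 ± 135 TPM, then Pkm (pyruvate kinase), Mdh1 (cytosolic malate dehydrogenase) and Idh1 (cytosolic isocitrate dehydrogenase). These 5 genes made up 49.4% of the summed TPM of the pathway genes. Below 1 TPM lay Hk2, a hexokinase of muscle and growing cells (20, 35 and 43 counts in A, B and D), Rpia, ribose-5-phosphate isomerase (37, 21 and 53 counts), and Pklr, pyruvate kinase of liver and red cells. Pklr had 1, 1 and 0 counts, and a count of 0 in D allows up to 0.0716 TPM (3 counts), by counting error only. By branch, the median level was 61.7 ± 27.2 TPM for the 25 glycolytic genes and 71.7 ± 18.7 TPM for the 7 pentose phosphate genes. It was 25.8 ± 14.3 TPM for the 8 genes of pyruvate entry and 183 ± 26.5 TPM for the 18 genes grouped as citrate cycle. This last group includes the cytosolic Idh1, Mdh1, Me1 and Aco1 but no succinate dehydrogenase subunit.

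**Figure D1:**
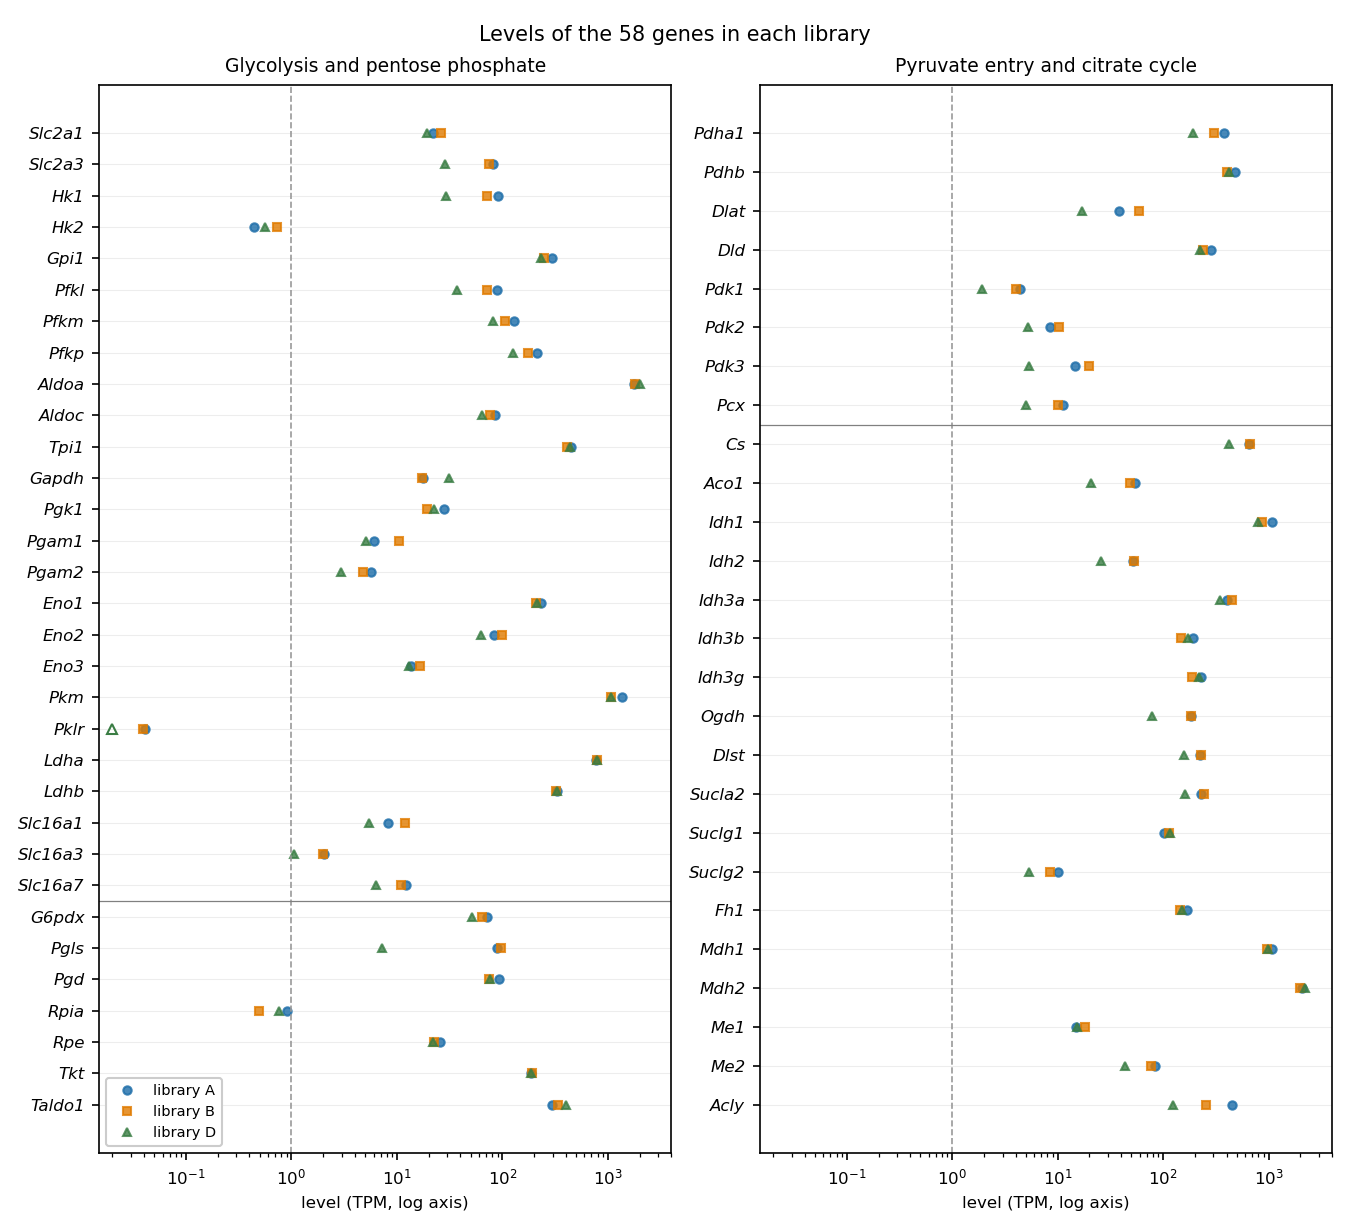
Level of each of the 58 genes in libraries A, B and D (TPM, log axis), in pathway order; the dashed line marks 1 TPM and the horizontal lines separate branches. The open triangle is Pklr in D, which had no counts and is drawn near the left edge, and Pgls lies at 7.17 TPM in D against 88.2 and 97.7 TPM in A and B.

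Glucose enters cells through facilitative transporters. Slc2a3, the high-affinity transporter typical of neurons (GLUT3), was at 81.5, 74.7 and 28.8 TPM. Slc2a1, the widely expressed transporter GLUT1, was at 21.8, 26.2 and 19.4 TPM. Slc2a3 was the higher of the pair in all 3 libraries, 2.51-fold on average (log2 Slc2a1/Slc2a3 -1.33 ± 0.69), although the gap was narrowest in D, where the level of Slc2a3 itself was lowest. The 2-sided exact sign-flip permutation test of this ratio gave p = 0.25, which is the smallest value that 3 libraries allow. No ratio below can therefore pass 0.05, whatever its size. Of 22 pairs of genes serving the same step, 21 reached 10 counts for each gene in all libraries and were tested. In 20 of the 21 the direction was the same in every library, and in 16 of 21 as CPM, without correction for length (exact p = 0.25, 0.263 after Benjamini-Hochberg adjustment over the 21 pairs).

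Hexokinase, which traps glucose as glucose-6-phosphate, came almost entirely from Hk1, the brain form that binds mitochondria. Hk1 was at 90.7, 70.9 and 29.5 TPM, which was 98.9 ± 0.689% of the summed level of Hk1 and Hk2. The log2 ratio of Hk1 to Hk2 was 6.67 ± 0.98, or 102-fold. Gpi1, the isomerase of the next step, stood at 293, 249 and 235 TPM.

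All 3 phosphofructokinase genes, which encode the subunits of the main controlled enzyme of glycolysis, were expressed. Pfkp, the platelet form, was at 215, 175 and 127 TPM. Pfkm, the muscle form, was at 128, 107 and 81.1 TPM, and Pfkl, the liver form, at 88.3, 71.3 and 37.5 TPM. The order Pfkp, Pfkm, Pfkl was the same in each library, and Pfkp held 50.3 ± 1.11% of the step. The ratio of Pfkm to Pfkp moved little between libraries (log2 -0.70 ± 0.05), while Pfkl was lower relative to both in D.

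Aldolase was dominated by Aldoa, with 1775, 1817 and 2027 TPM. Aldoc, the brain and glial form, stood at 85.2, 77.2 and 64.3 TPM, so that Aldoa held 96.1 ± 0.769% of the step (log2 Aldoa/Aldoc 4.64 ± 0.31, 24.9-fold). Tpi1, which interconverts the triose phosphates, was at 449, 410 and 443 TPM. Aldoa was highest in D and Aldoc lowest there, while Tpi1 had a coefficient of variation of 4.80%. Of the coding sequence of Aldoa 19.5% was shared with other genes, in the sense explained below.

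The next 3 steps gave far lower values. Gapdh, glyceraldehyde-3-phosphate dehydrogenase and often used as a reference gene, was at 17.5, 17.4 and 31.1 TPM, from 341, 355 and 1031 counts. Pgk1, the phosphoglycerate kinase that makes the first ATP of the pathway, was at 27.9, 19.3 and 22.6 TPM. Pgam1, the general phosphoglycerate mutase, was at 6.05, 10.4 and 5.06 TPM. Within libraries, Tpi1 exceeded Gapdh 20.5-fold (log2 4.36 ± 0.46) and Pgk1 18.9-fold (log2 4.24 ± 0.21), and Eno1, the enzyme after Pgam1, exceeded Pgam1 31.9-fold (log2 4.99 ± 0.60). In every library these genes lay far below their neighbours in the pathway.

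The coding sequences of these genes also occur in other annotated genes. For each gene, the principal coding sequence in GENCODE M21 was split into all windows of 50 bases, and windows found without mismatch in an annotated transcript of another gene were counted. For Gapdh 100% of windows were shared, with 228 other genes of which 214 are annotated pseudogenes. For Pgk1 and Pgam1 the share was also 100%, with 5 and 4 other genes, all pseudogenes. No other gene of the 58 reached 100%. Among the other 6 enzymes on the route from Gpi1 to lactate (Gpi1, Aldoa, Tpi1, Eno1, Pkm and Ldha), the share ran from 13.7% for Tpi1 to 83.3% for Eno1, and levels from 218 to 1873 TPM. In 40 of the 58 genes no window was shared. With windows of 100 bases the share stayed at 100% for Gapdh, Pgk1 and Pgam1. It was then 69.3% for Eno1, 15.3% for Pkm, 11.6% for Gpi1, 2.45% for Ldha, 1.38% for Tpi1 and 0% for Aldoa. Shares given elsewhere are for 50 bases, and longer reads are less often ambiguous. A read that lies wholly within shared sequence cannot be assigned to 1 gene, and how such reads were counted is not given in the sources used here. The values of Gapdh, Pgk1 and Pgam1 are therefore uncertain, and the part of shared sequence in them was not tested. The other listed genes that share windows with Gapdh held 1789, 1568 and 6115 counts, so they too were highest in D. Those sharing windows with Pgk1 held at most 5 counts in a library and those with Pgam1 at most 2.

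These stretches of 60 bases from the middle of each coding sequence are shown because each is found unchanged in a processed pseudogene (sense strand, 5′ to 3′, GENCODE M21 on GRCm38). The Gapdh stretch, bases 470 to 529 of the coding sequence, is identical in Gm10359. The Pgk1 stretch (596 to 655) is identical in Gm5537 and the Pgam1 stretch (352 to 411) in Pgam1-ps2. No base differs, so none is in capitals.
Gapdh: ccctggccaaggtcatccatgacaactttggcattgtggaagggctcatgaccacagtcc
Pgk1: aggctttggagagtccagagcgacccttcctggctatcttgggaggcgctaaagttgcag
Pgam1: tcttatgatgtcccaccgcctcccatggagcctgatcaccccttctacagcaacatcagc

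The genes lie at chr6:125161853-125166467 on the minus strand (Gapdh), chrX:106187100-106203699 on the plus strand (Pgk1) and chr19:41911871-41918664 on the plus strand (Pgam1), in GRCm38.p2 as in the deposited files, from first to last exon.

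No pair of isoenzymes shared a window of this length. Over the 22 pairs, aligned coding sequences were 54.2% to 77.8% identical, and the longest run of identical bases in any pair was 31, between Pkm and Pklr. The stretches below show 2 examples, in the same region of the paired coding sequences, with capitals at the bases that differ between the paired genes: 10 of 60 bases for lactate dehydrogenase and 14 of 60 for enolase.
Ldha: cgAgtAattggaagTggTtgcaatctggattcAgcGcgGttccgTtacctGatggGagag
Ldhb: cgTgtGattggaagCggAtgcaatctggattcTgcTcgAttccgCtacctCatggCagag
Eno1: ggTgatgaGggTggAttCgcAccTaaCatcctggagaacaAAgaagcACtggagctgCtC
Eno2: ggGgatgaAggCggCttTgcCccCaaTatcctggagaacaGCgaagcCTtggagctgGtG

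**Figure D2:**
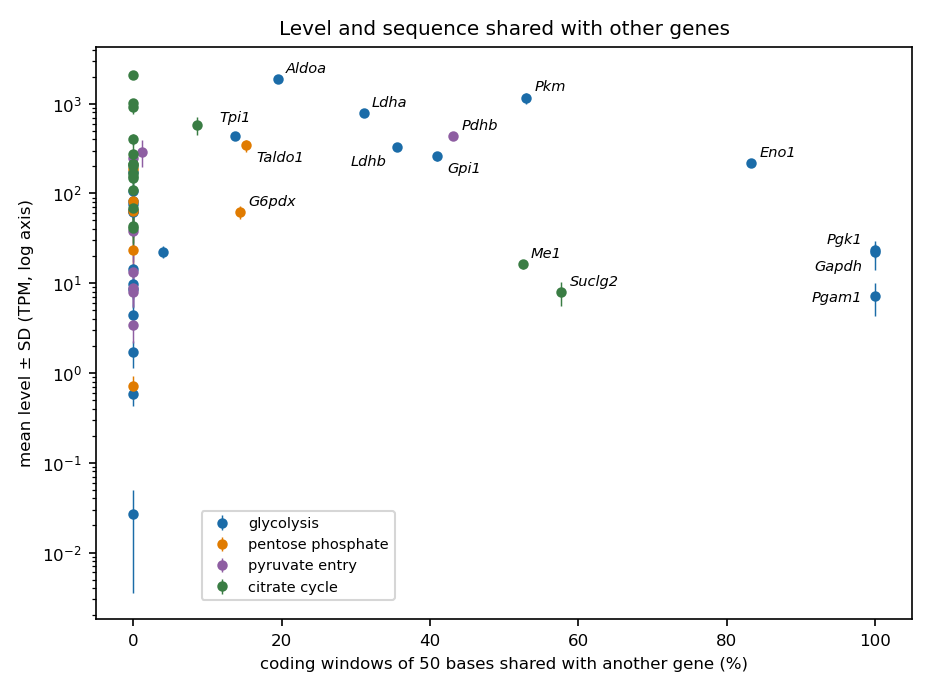
Mean level of each gene (TPM, log axis, bars are SD over 3 libraries) against the percent of its 50-base coding windows that also occur in another gene. Gapdh, Pgk1 and Pgam1 sit at 100% with means of 7.18 to 23.3 TPM, and Eno1 sits at 83.3% with a mean of 218 TPM. Labels are given above 10%.

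For phosphoglycerate mutase, Pgam2, the muscle form, stood at 5.65, 4.78 and 2.94 TPM, from 32 to 36 counts and with no shared window. Pgam1 led the step in every library (log2 Pgam1/Pgam2 0.67 ± 0.52), with the uncertainty of its counts given above.

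Enolase came mainly from Eno1, the general form, at 234, 207 and 214 TPM. Eno2, neuron-specific enolase, stood at 82.8, 99.0 and 62.7 TPM, and Eno3, the muscle form, at 13.5, 16.7 and 13.0 TPM. Eno1 thus exceeded the neuronal form 2.72-fold (log2 1.44 ± 0.36) and held 69.6 ± 5.01% of the step. With 83.3% of its coding windows shared, all of them with the pseudogene Gm4735, the Eno1 count is also uncertain. Eno2 and Eno3 shared none. Eno2 exceeded Eno3 5.60-fold (log2 2.48 ± 0.19).

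Pyruvate kinase was represented by Pkm, at 1352, 1079 and 1062 TPM. Pkm holds 2 alternative exons that give the M1 and M2 forms, which counts per gene cannot separate. Of its coding windows 52.9% were shared with other genes. Pklr was under the 10 counts required of each gene in every library, so the Pkm to Pklr ratio was not tested.

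The lactate dehydrogenase genes had the ratio with the smallest SD of the 21 pairs. Ldha, the subunit favoured in glycolytic tissue, was at 777, 796 and 787 TPM. Ldhb, the subunit favoured in oxidative tissue, was at 330, 320 and 333 TPM. The coefficients of variation were 1.21% and 2.00%, and Ldha exceeded Ldhb 2.40-fold (log2 1.26 ± 0.04). Of the windows of Ldha 31.0% were shared, and of Ldhb 35.6%.

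Monocarboxylate transporters, which move lactate and pyruvate across the cell membrane, were much lower than the dehydrogenase. Slc16a7 (MCT2), the high-affinity neuronal form, was at 12.2, 10.9 and 6.34 TPM. Slc16a1 (MCT1) was at 8.31, 12.0 and 5.46 TPM, so that Slc16a7 was higher in A and D and Slc16a1 in B (log2 Slc16a1/Slc16a7 -0.21 ± 0.35, exact p = 0.5). This was the single tested pair without 1 direction, so no transporter led in every library, and by mean level Slc16a7 was highest. Slc16a3 (MCT4), the lactate exporter of glycolytic cells, was lowest at 2.03, 2.01 and 1.05 TPM, 5.82-fold below Slc16a7 (log2 Slc16a3/Slc16a7 -2.54 ± 0.09).

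**Figure D3:**
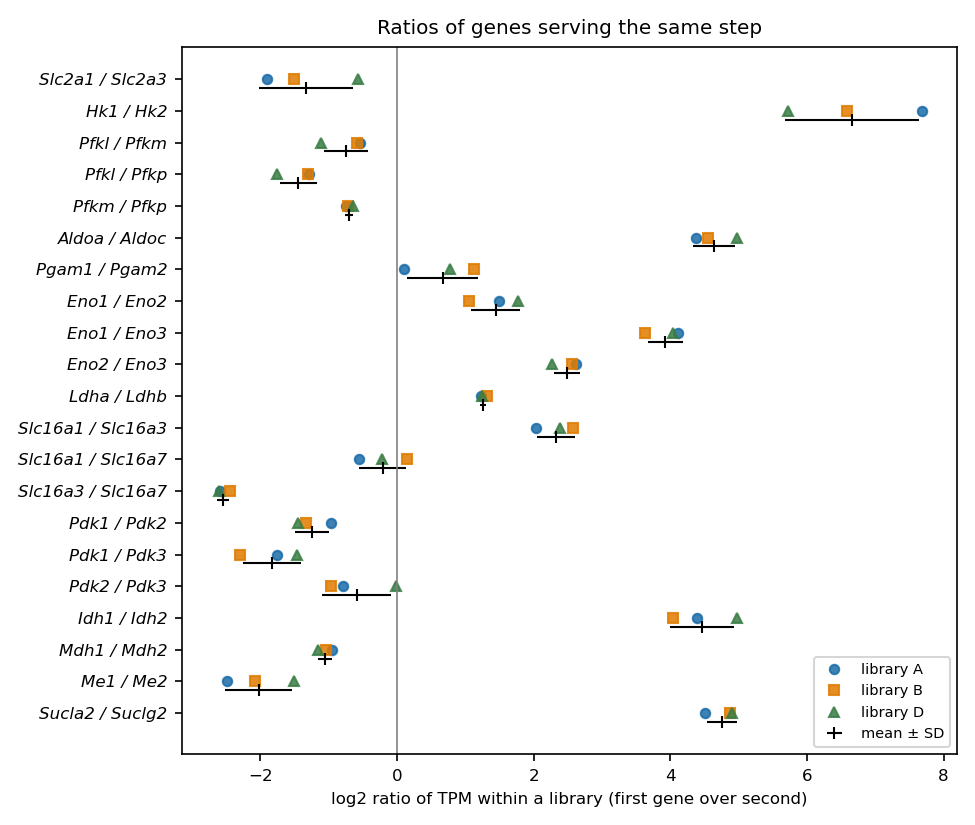
Log2 ratio of TPM between 2 genes serving the same step, within each library; black bars are mean ± SD over the 3 libraries, drawn below the points. The Slc16a1 to Slc16a7 points fall on both sides of 0, and every other pair keeps its side.

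In the pentose phosphate pathway, Taldo1 and Tkt, both of the non-oxidative branch, were highest. Taldo1, transaldolase, was at 297, 334 and 398 TPM, and Tkt, transketolase, at 189, 191 and 186 TPM. Tkt had the smallest coefficient of variation of all 58 genes, 1.16%. The oxidative enzymes G6pdx (71.4, 63.8 and 51.4 TPM), which commits glucose to the pathway, and Pgd (92.8, 75.5 and 76.3 TPM), which makes ribulose-5-phosphate, were lower. Rpe, the epimerase, was at 25.6, 22.7 and 21.8 TPM. Rpia, the isomerase that makes ribose-5-phosphate, was at 0.911, 0.492 and 0.764 TPM, so Tkt exceeded it 270-fold (log2 8.07 ± 0.47). The windows of Rpia were not shared. Its deposited length was 5359 bases, against 6533 for Tkt, and as CPM, without length, the means were 1.56 and 498.

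Pgls, 6-phosphogluconolactonase, which hydrolyses the lactone made by G6PDX, was at 88.2, 97.7 and 7.17 TPM, from 2522, 2932 and 350 counts, although D was the most deeply sequenced library. Libraries A and B lay close together and D 13.0-fold below their mean. In edgeR's goodness-of-fit test, which asks whether a gene differs between libraries by more than genes of its level, Pgls was the 1 gene of the 57 tested here to pass (Benjamini-Hochberg adjusted p = 0.000361 over 13530 genes). Over all genes tested, 0.177% passed. On the log2 CPM scale Pgls in D was -3.35 from the mean of A and B. In the same test leaving out A gave an adjusted p of 0.00323 and leaving out B 0.0291, whereas A and B alone gave 0.9996, so the call rests on D. Pgls (chr8:71592176-71601092, plus strand, GRCm38.p2) shared no coding window. Of its exon bases 20.6% overlap Fam129c on the same strand, whose highest count was 132. The summed erythroid markers were highest in D (186, 104 and 359 TPM). So were those of glia (564, 888 and 950 TPM) and skeletal muscle (18.0, 18.1 and 25.4 TPM). Lowest in D were those of mesenchyme and pericytes (37.9, 93.9 and 29.5 TPM), macrophages and endothelium. The part of any of these in the difference of Pgls was not tested.

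Pyruvate enters the citrate cycle through the pyruvate dehydrogenase complex. Its E1 subunits Pdha1 (382, 305 and 190 TPM) and Pdhb (481, 405 and 424 TPM) and its E3 subunit Dld (285, 241 and 226 TPM) were high. Dlat, the E2 core subunit, was at 38.6, 59.5 and 17.0 TPM, so that Pdhb exceeded it 12.8-fold (log2 3.68 ± 0.94) and Pdha1 8.27-fold (log2 3.05 ± 0.61). The deposited length of Dlat is 4886 bases against 1485 for Pdhb, and Dlat was lowest in D. As CPM, without length, the means were 261 for Pdhb, 432 for Pdha1 and 73.9 for Dlat. Of the windows of Pdhb 43.1% were shared, and of those of Dlat none. The kinases that switch the complex off were all low. Pdk3 stood at 14.7, 19.9 and 5.31 TPM, Pdk2 at 8.46, 10.2 and 5.28 TPM and Pdk1, a hypoxia-responsive form, at 4.36, 4.07 and 1.94 TPM. Pdk3 was the highest kinase in every library, but in D Pdk2 differed from it by a log2 ratio of only -0.01. In D that order rests on gene length: the counts there were 176 for Pdk3, 216 for Pdk2 and 195 for Pdk1. Pdk3 also had the highest count in A and B (285 and 406). In these libraries Pdk2 had 203 and 257 counts and Pdk1 257 and 252. Pcx, pyruvate carboxylase, which refills the cycle and is typical of glia, was at 11.2, 10.2 and 4.99 TPM.

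The genes grouped as citrate cycle had the highest branch median. Cs, citrate synthase, was at 648, 670 and 425 TPM. The NAD-dependent isocitrate dehydrogenase of the mitochondria had all 3 subunits: Idh3a was at 408, 454 and 346 TPM, Idh3g at 229, 188 and 220 TPM and Idh3b at 193, 147 and 171 TPM. The catalytic alpha subunit thus exceeded the beta subunit 2.37-fold (log2 1.24 ± 0.34) and the gamma subunit 1.89-fold (log2 0.92 ± 0.32).

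The NADP-dependent isoenzymes were strongly skewed towards the cytosol. Idh1 was at 1081, 874 and 803 TPM, while the mitochondrial Idh2 was at 51.6, 53.0 and 25.5 TPM. Idh1 exceeded Idh2 22.1-fold (log2 4.47 ± 0.47) and held 95.5 ± 1.32% of the pair. For malate dehydrogenase the skew was the other way. The mitochondrial Mdh2 was at 2073, 2004 and 2202 TPM and the cytosolic Mdh1 at 1074, 972 and 986 TPM, a 2.07-fold difference (log2 Mdh1/Mdh2 -1.05 ± 0.10). Malic enzymes make pyruvate from malate, and here too the mitochondrial Me2 (83.8, 77.2 and 43.4 TPM) exceeded the cytosolic Me1 (15.0, 18.2 and 15.3 TPM), 4.07-fold (log2 Me1/Me2 -2.02 ± 0.49). Of the windows of Me1 52.5% were shared, of those of Me2, Mdh2, Idh1 and Idh2 none.

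Of the later cycle enzymes, Ogdh, the E1 subunit of the 2-oxoglutarate dehydrogenase complex, was at 185, 182 and 77.8 TPM, and its E2 subunit Dlst at 224, 228 and 158 TPM. Succinate-CoA ligase joins the shared alpha subunit Suclg1 (102, 113 and 115 TPM) with an ATP-forming or a GTP-forming beta subunit. The ATP-forming Sucla2 was at 229, 245 and 162 TPM and the GTP-forming Suclg2 at 10.1, 8.37 and 5.39 TPM, a 27.1-fold difference (log2 4.76 ± 0.22). Suclg2 shared 57.7% of its windows with a pseudogene, Gm15163, and Sucla2 none. Fh1, fumarate hydratase, was at 168, 143 and 152 TPM. Aco1, the cytosolic aconitase that doubles as an iron sensor, was at 54.5, 48.5 and 20.6 TPM. Acly, which splits exported citrate into acetyl-CoA for lipid synthesis, was at 453, 254 and 124 TPM. It differed 3.66-fold between A and D, yet edgeR's goodness-of-fit test did not call it (adjusted p = 0.713, unadjusted p = 0.0218).

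Other genes of these pathways were read from a further list of 55 that are not among the 58. Of 27 other genes of sugar entry, glycolysis and gluconeogenesis 16 reached 1 TPM, with a median of 3.29 ± 0.862 TPM. The highest were G6pc3, a glucose-6-phosphatase subunit (55.2 ± 7.93 TPM), Slc2a6, a glucose transporter family gene (50.2 ± 7.89 TPM), and Bpgm, the red cell enzyme for bisphosphoglycerate (49.5 ± 2.31 TPM). Pck1, the cytosolic gluconeogenic enzyme, had no counts. Of 6 other pentose phosphate genes 3 reached 1 TPM. These were Prps1 (146 ± 12.1 TPM) and Prps2 (6.60 ± 2.70 TPM), which use ribose phosphate for nucleotides, and the sedoheptulose kinase Shpk (3.39 ± 0.703 TPM), while Tktl2 had no counts. Of 22 other genes of pyruvate entry and the citrate cycle 18 reached 1 TPM, with a median of 61.4 ± 5.48 TPM. The highest were the succinate dehydrogenase subunits Sdhb (897 ± 70.0 TPM) and Sdhd (767 ± 9.46 TPM). The testis form Pdha2 had no counts. In the 3 lists 18, 4 and 18 genes were tested for variation between libraries, and 0 passed edgeR's goodness-of-fit test, 0 had an unadjusted p under 0.05 and 0 were dispersion outliers in DESeq2. Over all genes tested the shares were 0.177%, 6.11% and 0.0296%.

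Among the 55 genes of at least 1 TPM the median coefficient of variation was 19.2%, beside 28.3% over all genes of at least 1 TPM, and among the 27 of at least 100 TPM it was 12.3%, beside 18.4%. In the goodness-of-fit test 3 of 57 genes, Pgls, Acly and Dlat, had an unadjusted p under 0.05, against 6.11% of all genes, a share near that background.

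The difference of each library from the mean of the others was described for the 57 tested genes. Library A was above the others by more than 1 on the log2 CPM scale for Pgls (1.56) and Acly (1.18), beside 3.18% of all genes tested, and below by as much for 0 genes, beside 2.85%. Library B was above for Pgls (1.79), Dlat (1.05) and Pdk3 (1.01), beside 3.61%, and below for 0 genes, beside 2.94%. Differences under 0 were found for 20 genes in A, 28 in B and 29 in D, beside 47.8%, 50.7% and 50.3% of all genes. In D 6 of 57 genes were lower than the mean of A and B by more than 1 on the log2 scale, beside 6.78% of all genes tested: Pgls (-3.35), Pdk3 (-1.34), Dlat (-1.15), Acly (-1.12), Hk1 (-1.11) and Slc2a3 (-1.10). Higher by more than 1 was only Gapdh (1.16), beside 4.45% of all genes. The 20 genes with a deposited length above 4000 bases had a median difference of -0.57 in D, and the 37 shorter ones 0.06. Across genes, the correlation of the difference in D with log2 length was r = -0.28 over 57 genes and -0.31 over 13530 genes. The same correlations were 0.30 and 0.35 in A, and 0.17 and 0.03 in B. They are a description of these libraries, as genes share library and depth. When the trend with length was removed, 3 genes lay below -1 in D, the difference of Pgls became -3.17 and that of Acly -0.89. The median difference over all 57 genes was 0.10, 0.02 and -0.00, against 0.03, -0.01 and -0.00 over all genes.

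**Figure D4:**
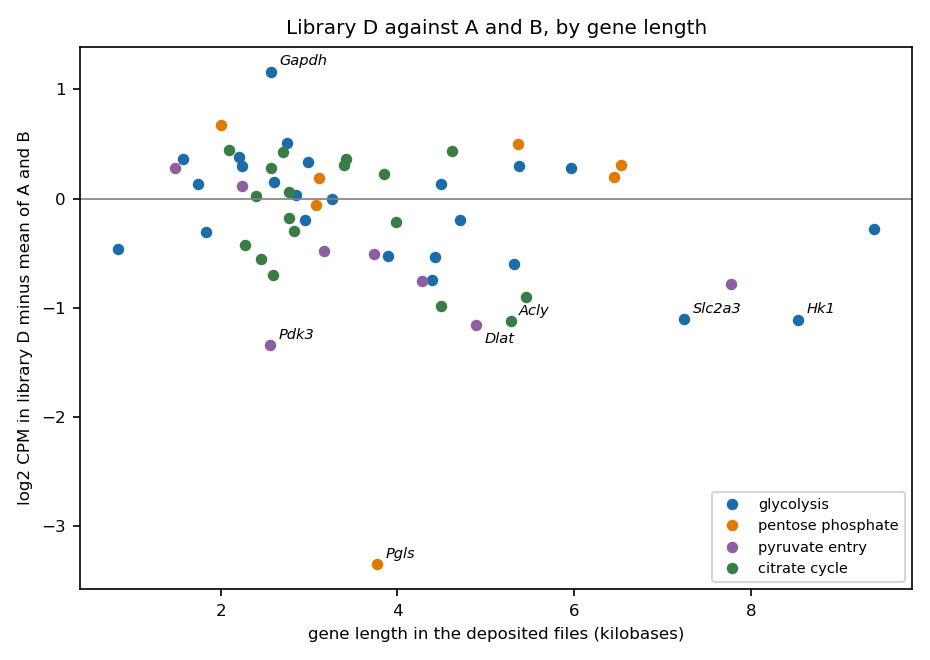
Log2 CPM (prior count 2) in library D minus the mean of A and B for the 57 tested genes, against gene length in kilobases. Pgls lies at -3.35, Pdk3, a shorter gene of 2561 bases, at -1.34, and the longer genes Hk1, Slc2a3, Acly and Dlat below -1, while Gapdh lies above 1.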

How the data were processed

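Sorted cells gave total RNA, which was amplified by the SMARTer Ultra Low Input protocol and sequenced, per the labels' protocols. The authors deposited counts per gene as whole numbers. The submitters' processing notes name Subread, featureCounts 1.4.5 and the build GRCm38.p2. For strand and for reads matching several places, the settings are not given. Deposited CPM equalled the count over the library total, and deposited RPKM equalled CPM per kilobase of the deposited gene length, for every gene. Symbols came from GENCODE M21 (40254 of 41388 genes).

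TPM was computed from counts and deposited lengths, which cover the exons of all isoforms and so lower the TPM of genes with long, little-used exons. Variation between libraries used edgeR 4.0.16 (R 4.3.3) with TMM, filterByExpr, an intercept-only fit, a trend for dispersion and goodness of fit by deviance over all genes, adjusted by Benjamini-Hochberg at 0.05 and checked on simulated data. With 1 group, the quasi-likelihood test has no contrast. The libraries are pools of embryos, so SDs and p-values measure the spread between pools, technical noise included. No molecular identifiers are described, so floors cover counting error only. Shared windows were read from GENCODE M21 transcripts with APPRIS principal coding sequences, a description chosen after the levels were seen. Python 3.11.15, numpy 2.4.6, pandas 2.3.3, matplotlib 3.10.9 and DESeq2 1.42.0 were also used.

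Genes and lists were chosen with earlier results of these data known. By rule, values per library were given for the leading gene and runner-up of each step with alternatives, for single-gene glycolytic and pentose phosphate steps, and for genes past the test. Counts were given for genes below 1 TPM. Of the other pathway genes, the 3 highest of each list and those without counts were named, except 1 gene that is not reported here; further genes were described by step. Alternatives were other thresholds, CPM, other totals, normalisations, filters, dispersions and prior counts, length and GC trends, DESeq2 dispersion outliers and leaving out each library.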

Additional observations from a re-analysis of the deposited data

How the results depend on the processing

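Of 13 steps with alternative genes, 13 kept the leading gene under CPM, under totals without mitochondrial and hemoglobin genes, without B and without D, and 12 without A. The exception was Slc16a7, whose percent of its step was 46.5% without A, where Slc16a1 led, 51.8% without B and 45.1% under CPM. As CPM, without length, 16 of the 21 pairs had 1 direction in every library, against 20 as TPM: Pfkl/Pfkm and the 3 pairs of Pdk1, Pdk2 and Pdk3 lost it. The mean log2 ratio of Pdk1 to Pdk2 turned from -1.24 to 0.0548, and the median level was 164 CPM against 78.5 TPM. The count of the 58 genes that varied between libraries was 1 in every setting that held D, DESeq2 dispersion outliers included, and ran from 0 to 1 when a library was left out. With library totals alone, the median difference of these genes was 0.11 in B and -0.12 in D, beside 0.09 and -0.12 over all genes. Removing the GC trend from the library differences was chosen after seeing the data. No paired analysis was possible because there is 1 group. The smallest p of the exact permutation test of a ratio is 0.25, and for Hk2, Pgam2, Pklr and Rpia low counts limit precision.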
